A study of Drosophila melanogaster with 16 samples.

Results

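The glutathione S-transferase (GST) genes of the fruit fly were taken as every gene of the table whose symbol was Gst followed by a class letter (D, E, O, S, T or Z) and a number. The rule found 34 of 12286 genes: 10 of class D (delta), 14 of class E (epsilon), 3 of class O (omega), 1 of class S (sigma), 4 of class T (theta) and 2 of class Z (zeta). They were measured by RNA sequencing of heads of Drosophila melanogaster aged 10 days, in which human α-synuclein, the protein that aggregates in Parkinson's disease, was made in glia, in neurons, in both or in neither. All flies carried a neuronal driver of the Q system (SybQF2) and a glial driver of the GAL4 system (RepoGAL4), so control flies carried both drivers too. Control flies had the genotype SybQF2, RepoGAL4/+. Glia flies carried UAS-Syn, which the glial driver switches on, neuron flies carried QUAS-Syn, which the neuronal driver switches on, and both flies carried the pair (labelled QUASSyn and UAS-Syn). Whole heads were used, so RNA of the driver's cells was mixed with that of all other head cells. Each library came from a pool of 6 flies, 3 males and 3 females. Of the 16 samples labelled, 13 had values: 3 of control, 3 of glia, 3 of neuron and 4 of both. The other 3 were not analysed here. The α-synuclein transgene was not among the genes analysed here, so its RNA could not be used to check the group labels.

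GSTs join the tripeptide glutathione to reactive, fat-soluble or toxic molecules, which makes them easier to export, and several also reduce lipid peroxides or change the shape of a substrate. The delta and epsilon classes are specific to insects and arthropods, arose largely by tandem duplication and include the enzymes best known from insecticide resistance. Omega, theta, zeta and sigma classes are shared with vertebrates. In flies many delta and epsilon genes respond to oxidative stress through the transcription factor cnc, the relative of mammalian Nrf2, and its inhibitor Keap1, and GstD1 is widely used as a reporter of that response.

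In the annotation, all 10 delta members lay in 20.8 kb of chromosome 3R (12364776 to 12385624, build BDGP6), with GstD1 at 12367817 to 12369268. GstE1 to GstE10 lay together within 13.2 kb on 2R. Over the family, 17 members lay on 2R, 12 on 3R, 3 on 3L and 2 on X. How reads matching several of these near copies were counted is not given in the sources used here, so the split of reads among neighbours of a cluster is uncertain.

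Libraries held 2808960 to 4767799 reads in genes, of which 8.92% to 14.5% fell to the 10 most abundant genes. Genes of neurons, photoreceptors and glia were present in every library, as a head sample should show. The median normalized count over 8 neuronal markers ran from 1230 in glia 2 to 3338 in both 2, and that over the photoreceptor markers from 2328 in glia 2 to 8154 in both 1. Glia 2 was the lowest library on both. RNA of trunk organs was also present, and its level differed between groups and between libraries of 1 group. The summed ovary markers, for instance, were 3881 in glia 2 and 23.9 in glia 4. The summed midgut markers were 4180 to 10966 in control, 15224 to 24399 in glia, 754 to 6032 in neuron and 89 to 9564 in both libraries. For the Malpighian tubule, which serves as kidney, the summed markers were 416 to 518, 702 to 876, 314 to 553 and 389 to 446 in the same order. Many GSTs are known to be expressed in gut and tubule. The part of these organs in the differences between groups was not tested. In RNA of whole heads, fewer cells of a type and less RNA per cell cannot be told apart.

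The family spanned a wide range of levels, given here as normalized counts per kilobase of annotated exon and averaged over the 13 libraries (a normalized count is the deposited adjusted count minus 1). GstD1, known for breaking down DDT, had the highest level at 1168 per kb, followed by GstE12 at 569.9 and GstE9 at 342. GstT4 followed at 253, GstE6 at 197, GstS1 at 165, GstO3 at 129 and GstE3 at 118. The top 2 genes made up 44.1% of the family's summed level per kb and the top 4 made up 59.2%. The lowest were GstE10 at 4.72, GstD7 at 1.65 and GstD4 at 1.22. By class, epsilon genes took 41.7% of the summed level per kb, delta genes 34.8%, theta genes 11.2%, omega genes 6.45%, GstS1 4.20% and zeta genes 1.61%. Within the delta cluster the levels ran from that of GstD1 down to GstD9 at 78.1 and GstD3 at 52.2 and then to the remaining 7 genes below 30.

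**Figure D1:**
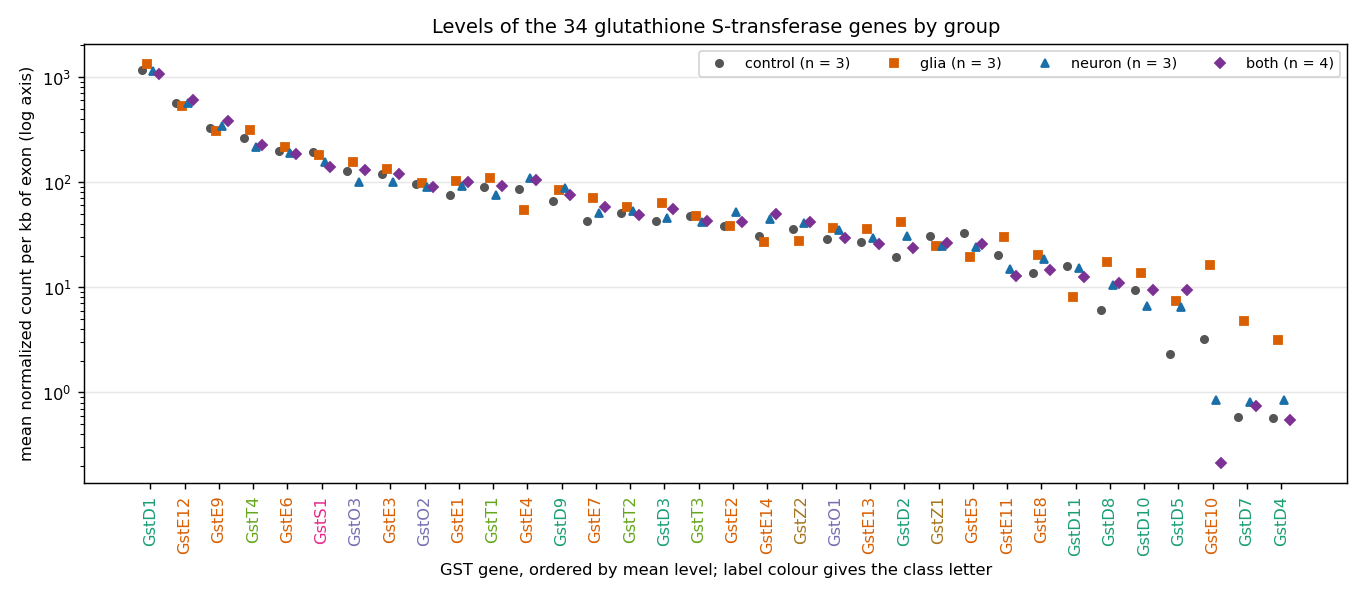
Mean level of each of the 34 members as normalized counts per kilobase of annotated exon (log axis), 1 point per group, ordered by mean level, with the class given by the color of the gene label. GstD1 (1168 over all libraries) and GstE12 (569.9) stood above the rest, the points of a gene lay close together for the abundant members, and GstE10, GstD7 and GstD4 were lowest.

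In plain normalized counts, 8 members averaged at least 100, 20 averaged between 10 and 100 and 6 averaged under 10, so a few reads decided the values of the last. Reads were found in every library for 30 members. All 34 passed the filter on low values (at least 1 normalized count in at least 4 libraries), but GstD4 and GstD7 passed it only through the 3 glia libraries, where they were highest, so counts of members are also given without them. The whole family held 0.0971% to 0.131% of a library's reads. Its summed normalized count was 4117 ± 359 (SD, n = 3) in control, 4385 ± 167 (n = 3) in glia, 3972 ± 329 (n = 3) in neuron and 4011 ± 162 (n = 4) in both libraries. The ranges of control (3812 to 4513) and of the other groups overlapped.

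Summed class levels are dominated by the most abundant gene of the class, and here they are a description. The theta sum was 461, 527 and 577 in control 1, 2 and 3, compared with 633, 611 and 589 in glia 1, 2 and 4. It was 373, 489 and 460 in neuron 1, 2 and 3, compared with 503, 416, 458 and 509 in both 1, 2, 3 and 4. All 3 glia libraries were thus above the other 10. The omega sum was likewise highest in glia, with 332 to 351 against 293 to 320 in control, 243 to 315 in neuron and 289 to 314 in both libraries. The delta sum (1314 ± 140.2 in glia against 1122 ± 193 in control) and the epsilon sum (1622 ± 14.7 against 1612 ± 144) overlapped between glia and control. The epsilon sum of every both library (1669 to 1867) was above that of every glia library (1611 to 1638).

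**Figure D2:**
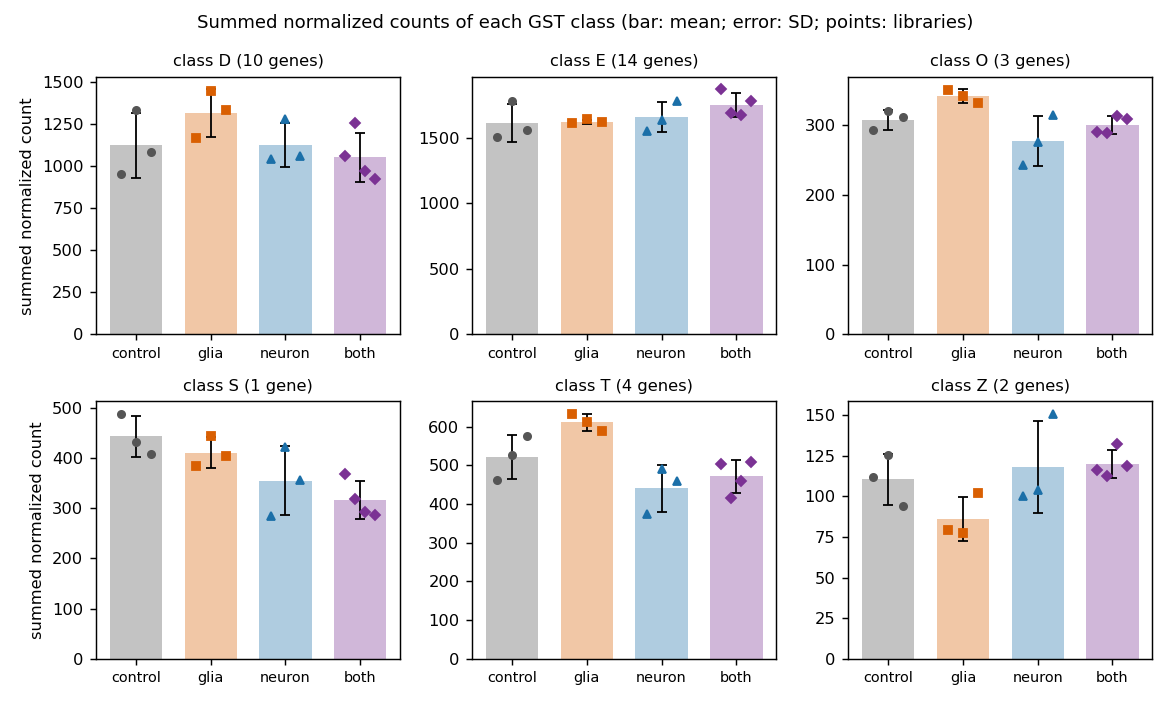
Summed normalized counts of each class in each group (bars, mean; error bars, SD; points, libraries). The theta and omega sums of the 3 glia libraries lie above all other libraries, while the delta and epsilon sums overlap between glia and control, and the epsilon sums of the 4 both libraries (1669 to 1867) lie above those of glia (1611 to 1638).

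Tests were run on log2(normalized count + 1) with limma in 1 fit over all 12181 genes that passed the filter, and a gene passed at an adjusted p under 0.05. On this scale the change of genes with few counts is understated. Libraries are separate pools of flies per the labels, and the p-values measure the spread between these pools. Comparisons with control share the control libraries, and those with glia share the glia libraries, so their values are given side by side.

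The first question was whether α-synuclein in glia moved the family. In glia against control no member passed (0 of 34), where 0.772% of all genes was called, 0.747% higher and 0.0246% lower. At an unadjusted p under 0.05 there were 6 members (17.6%), 5 higher and 1 lower, against 10.1% of all genes (5.55% higher and 4.51% lower), and limma-voom on the recovered reads also called 0. The fitted log2 difference was positive for 23 of 34 members, with a median of 0.27 against -0.03 over all genes tested. In class D it was positive for 9 of 10 members with a median of 0.69, in class E for 8 of 14 (0.14), in class O for 3 of 3 (0.27) and in class T for 3 of 4 (0.25). It was negative for GstS1 and for both zeta genes. Every glia library was above every control library for 6 of 34 members and below for 1, beside 6.81% and 5.11% of all genes. The 6 included GstD4, which passed the filter only through the glia libraries, so its place among them follows in part from the filter. Glia was the group with the highest mean for 20 of 34 members (58.8%), and for 33.0% of all genes tested. Without GstD4 and GstD7, 21 of 32 differences were positive (median 0.25), 7 of 8 in class D (0.50), 4 members (12.5%) had an unadjusted p under 0.05, 3 higher and 1 lower, and glia was highest for 18 of 32.

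The low delta genes had the large differences of that class and few reads behind them. GstD7 was at 0, 0 and 1.33 normalized counts in control 1, 2 and 3, at 2.60, 7.14 and 1.08 in glia 1, 2 and 4, at 0.887, 0 and 0.961 in neuron and at 1.28, 0, 0 and 0.965 in both libraries. That is 1 read in all control and 10 reads in all glia libraries, a ratio of normalized counts of 9.53 with an exact 95% interval of 1.36 to 414 that covers counting error only. Its glia and control libraries overlapped, and the log2 difference of 1.57 (SE 0.65) had an adjusted p of 0.423 in limma. GstD7 passed the filter only through the glia libraries, so these values are a description. GstD1, in contrast, had at least 785 normalized counts in every library: 843, 1180.2 and 946 in control libraries, 1017, 1279.5 and 1070.0 in glia, 897, 1073 and 913 in neuron flies and 907, 1057, 827 and 785 in both libraries. All groups overlapped with control, and its differences from control were 0.19 (SE 0.15) in glia, -0.03 (SE 0.15) in neuron and -0.14 (SE 0.14) in both flies, with adjusted p of 0.741, 0.945 and 0.619. GstD9, a more moderately expressed neighbour, had group means of 51.8 ± 18.1 in control, 66.2 ± 30.1 in glia, 69.3 ± 9.08 in neuron flies and 59.1 ± 10.3 in both flies, which also overlapped.

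GstE10 was the member whose groups lay farthest apart. Its normalized counts were 4.96, 2.03 and 3.98 in control 1, 2 and 3, compared with 16.9, 17.3 and 20.6 in glia 1, 2 and 4. In neuron 1, 2 and 3 they were 0, 0 and 2.88, and in both 1, 2, 3 and 4 they were 0, 0, 0 and 0.965. All glia libraries were above all others, and all control libraries were above all both libraries. These are 9 reads in control, 49 in glia, 3 in neuron flies and 1 in both libraries in total, so each control, neuron and both library held 0 to 4 reads.

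In glia against control GstE10 differed by 2.10 on the log2 scale (SE 0.57), with an adjusted p of 0.157 in limma, which did not pass. The same difference passed with a pseudocount of 5 in place of 1 (1.44, adjusted p 0.00704 in limma). It did not pass in limma-voom (adjusted p 0.0682), in a limma fit of only these groups (0.174) or with batch as a term (0.284). The ratio of normalized counts of glia to control was 5.19 with an exact 95% interval of 2.52 to 12.0 from counting error. Within the batches that hold both groups the difference was 1.59 and 2.60 on the log2 scale in batches 1 and 2. In neuron against control the difference was -1.51 (SE 0.57, adjusted p 0.367) and in both against control it was -1.92 (SE 0.54, adjusted p 0.102), and neither passed.

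GstE10 passed in both comparisons of glia with another α-synuclein group. In both against glia it fell by 4.02 on the log2 scale (SE 0.54, adjusted p 0.0012 in limma), and the within-batch values were -4.16, -4.20 and -3.46 in batches 1, 2 and 4. In glia against neuron it was higher by 3.61 (SE 0.57, adjusted p 0.00429), with 4.16 and 4.20 in batches 1 and 2. The second call was lost without batch 1 (adjusted p 0.131) and without batch 2 (0.121), and both calls were kept with any 1 library left out. The ratio of normalized counts of glia to neuron was 20.0 (exact 95% interval 6.45 to 100.2, counting error only) and that of glia to both was 79.5 (13.6 to 3202), resting on 3 reads and 1 read below the line. GstE10 was thus the highest in flies with α-synuclein in glia alone, and its level in flies with it in both cell types was under that of control flies in every library.

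GstE10 shares 127 bases of exon with GstE1 on the opposite strand. The libraries were stranded, but whether the counting used strand is not given in the sources used here. GstE1, which in flies is known to act on the lipid peroxidation product 4-hydroxynonenal, had 73.2, 58.8 and 57.0 normalized counts in control, 74.1, 103 and 77.0 in glia, 83.4, 66.4 and 77.8 in neuron flies and 107, 75.2, 78.1 and 71.4 in both libraries. Its both libraries lay mostly above control, where those of GstE10 lay below. Its difference in glia against control was 0.41 (SE 0.19, adjusted p 0.497 in limma), which did not pass and was 0.27 without glia 2.

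**Figure D3:**
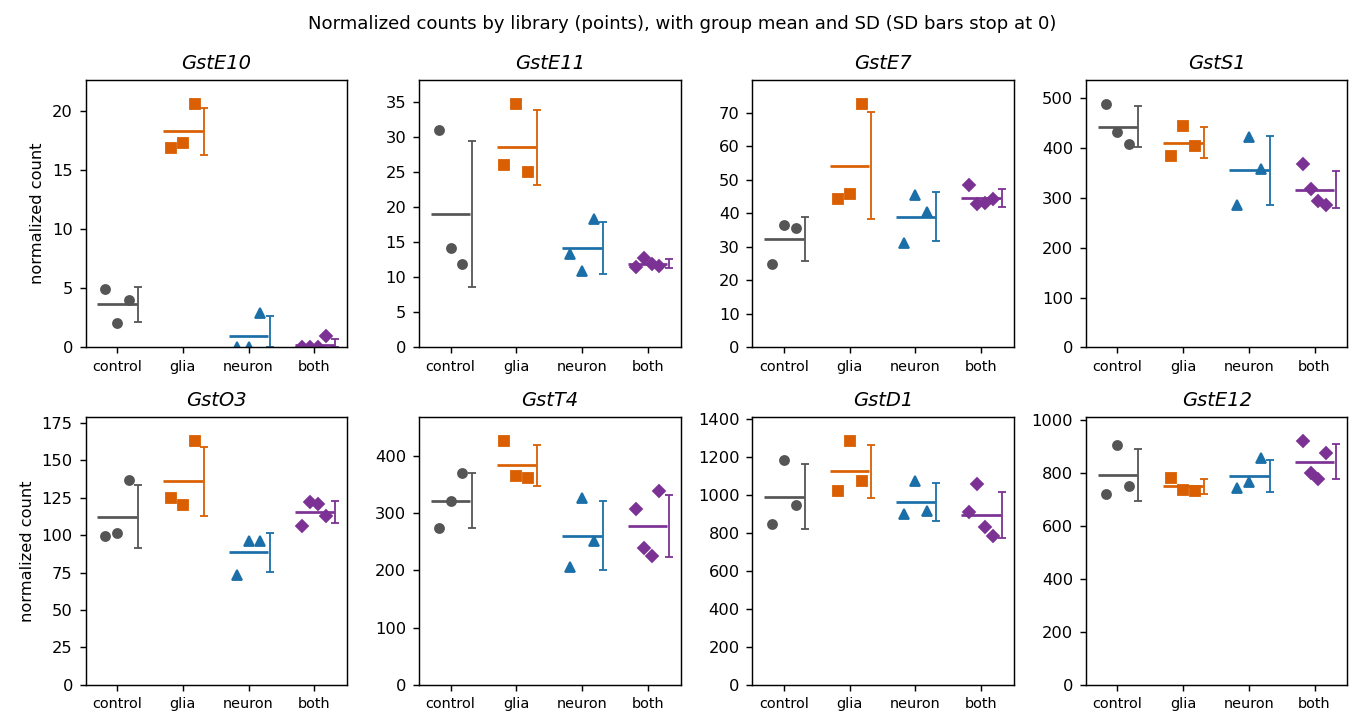
Normalized counts of 8 members in each library (points), with group means (lines) and SD (bars, which stop at 0). The 3 glia libraries of GstE10 (16.9 to 20.6) stand above all others, while GstD1 and GstE12, the most abundant members, overlap between all groups.

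Some organ markers were highest in the glia libraries, as GstE10 was. The midgut marker Myo61F was at 128, 109.5 and 137 in control 1, 2 and 3, at 515, 581 and 583 in glia 1, 2 and 4, at 49.7, 64.6 and 52.8 in neuron 1, 2 and 3, and at 109.8, 66.6, 43.2 and 134 in both 1, 2, 3 and 4. Vha100-4, a proton pump subunit listed as another midgut marker, was at 0 to 12.4 in control, 79.1 to 153 in glia, 0.909 to 7.09 in neuron and 0 to 8.94 in the both libraries. Uro, the urate oxidase that marks the Malpighian tubule, was at 45.9, 19.3 and 17.2 in control, at 101, 199 and 218 in glia, at 0, 0 and 19.2 in neuron and at 0, 0, 0 and 1.93 in both libraries. Uro and GstE10 were listed at 0 in the same 5 libraries (neuron 1 and 2, both 1, 2 and 3) and both were highest in the glia libraries. All 11 midgut markers were higher in glia than in control by fitted value, where 46.4% of all genes tested were higher. Of these markers 4 passed, where 0.747% of all genes was called higher. The same direction held for 6 of 7 tubule, 7 of 7 oenocyte and 9 of 10 ovary markers, with 0 passed in each list. It held for 0 of 8 neuronal, 0 of 9 photoreceptor and 1 of 8 glial markers. For fat body it was 1 of 7, for muscle 0 of 9 and for male accessory gland and ejaculatory bulb 0 of 15. Single markers did not all follow GstE10 by library. In glia 4, where GstE10 was highest, the midgut markers Jon25Biii and betaTry were at 0 and 305, and the tubule marker Best2 at 158. In control these were at 1.33 to 23.6, 501 to 1903 and 216 to 269. In both 4 the midgut marker alphaTry was at 3900, above control (1352 to 3537). Whether the GstE10 reads came from gut or tubule was not tested.

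**Figure D4:**
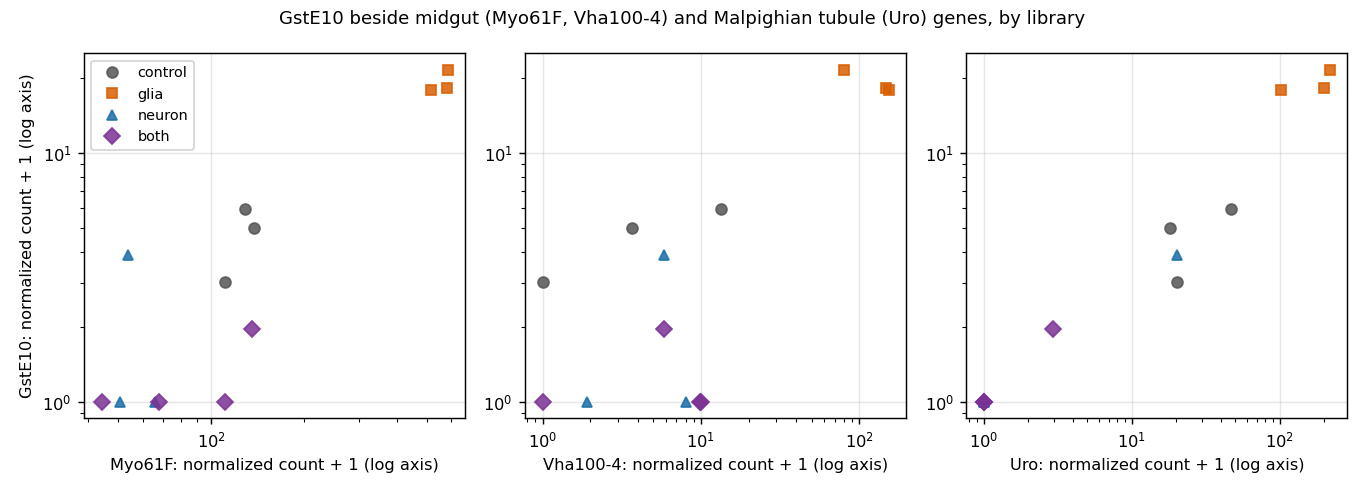
Each point is a library, with the normalized count + 1 of GstE10 on the vertical axis against that of Myo61F, Vha100-4 and Uro on the horizontal axes (log axes, points at 0 counts overlap). The 3 glia libraries lie at the upper right in each panel, and 5 libraries are at 0 for both GstE10 and Uro.

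GstE7 had the next smallest p in glia against control. It was at 24.8, 36.5 and 35.8 in control libraries, 44.2, 45.9 and 72.6 in glia, 31.0, 45.5 and 40.4 in neuron flies and 48.5, 42.7, 43.2 and 44.4 in both libraries. All glia and all both libraries were above all control libraries. The differences were 0.71 (SE 0.23, adjusted p 0.268 in limma) in glia and 0.47 (SE 0.22, adjusted p 0.258) in both flies, and neither passed. The latter was 0.30 without control 1. Within batches 1 and 2 the glia difference was 0.81 and 0.32. GstE12, the most abundant epsilon gene, showed little difference, with means of 793 ± 98.6 in control, 749 ± 27.6 in glia, 787 ± 59.2 in neuron flies and 842 ± 65.8 in both libraries. GstE4 had the widest range of group means among the better expressed epsilon genes, from 45.9 ± 15.1 in glia to 91.9 ± 19.0 in neuron flies, with 71.4 ± 29.7 in control and 87.2 ± 29.5 in both flies. Its glia libraries (55.9, 28.5 and 53.1) lay below all neuron libraries (110.0, 93.7 and 72.1), with an adjusted p of 0.138 in limma.

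In neuron against control 0 of 34 members passed, where 0% of all genes was called. GstE10 and GstS1, both lower, were the 2 members (5.88%) at an unadjusted p under 0.05, against 12.3% of all genes (4.07% higher and 8.26% lower), and limma-voom called 0. The median log2 difference of the members was 0.06, against -0.06 over all genes, with 19 of 34 positive. The neuron libraries lay wholly above control for 0 members and wholly below for 2, beside 9.97% and 11.1% of all genes. GstO3, an omega GST, was at 99.2, 101 and 137 in control libraries, 125, 120.3 and 163 in glia, 73.6, 96.4 and 96.1 in neuron flies and 106, 122, 121 and 113 in both libraries. Its neuron libraries were below all the others. The difference from control was -0.33 (SE 0.17, adjusted p 0.431 in limma), and it was -0.19 without control 3 and -0.21 without neuron 1.

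In both against control 0 of 34 members passed, where 1.01% of all genes was called, 0.0246% higher and 0.985% lower. Again GstE10 and GstS1, both lower, were the 2 members at an unadjusted p under 0.05, against 19.5% of all genes (6.76% higher and 12.8% lower), and limma-voom called 0. The median difference was 0.04, against -0.05 over all genes, with 19 of 34 positive. Both libraries lay wholly above control for 2 members and wholly below for 2, beside 9.57% and 11.3% of all genes.

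GstS1, the sigma class enzyme, is abundant in fly flight muscle, acts on 4-hydroxynonenal and is known to lessen neuron loss in fly parkin mutants when overexpressed. It was at 489, 433 and 408 in control 1, 2 and 3 and at 384, 445 and 404 in glia 1, 2 and 4. In neuron 1, 2 and 3 it was at 286, 423 and 357, and in both 1, 2, 3 and 4 at 368, 319, 293 and 286. All both libraries lay below all control and all glia libraries, and the neuron libraries lay across the range. In both against control the log2 difference was -0.49 (SE 0.13, adjusted p 0.101 in limma), and it did not pass. It passed in a fit of only these groups (adjusted p 0.0364) and without glia 2 (0.0473), and was at 0.327 without control 1. Within batches 1, 2 and 3 the difference was -0.41, -0.44 and -0.48. The median of the muscle markers was also lower in both libraries, with 3190 to 4224 in control, 2518 to 3705 in glia, 2190 to 2728 in neuron and 1938 to 2441 in both libraries. Their sums overlapped between glia (40146 to 64943) and both libraries (26858 to 44083). Of the glia libraries, glia 2 had the lowest muscle median (2518) and the highest GstS1 (445). It was also the library lowest on the neuronal and photoreceptor medians. The part of muscle in the GstS1 difference was not tested.

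Flies with α-synuclein in both cell types against flies with it in glia alone gave 2 of 34 members that passed (5.88%), both lower, where 7.86% of all genes was called, 3.11% higher and 4.75% lower. The members were GstE10, given above, and GstE11. At an unadjusted p under 0.05 there were 12 members (35.3%), 4 higher and 8 lower, against 27.9% of all genes (12.8% higher and 15.1% lower). The median difference was -0.22, against -0.07 over all genes, with 10 of 34 positive. Without GstD4 and GstD7, 10 of 32 were positive (median -0.20), and 10 members (31.2%), 4 higher and 6 lower, had an unadjusted p under 0.05. With all members, the difference was negative for 8 of 10 delta genes (median -0.39, or 6 of 8 and -0.25 without them), for 8 of 14 epsilon genes (-0.09), for 3 of 3 omega and 4 of 4 theta genes and for GstS1, and positive for both zeta genes. Every both library was above every glia library for 4 of 34 members and below for 5, beside 10.1% and 12.3% of all genes. GstD4, which passed the filter only through the glia libraries, was among the 5.

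GstE11 was at 31.0, 14.2 and 11.9 in control 1, 2 and 3 and at 26.0, 34.7 and 24.9 in glia 1, 2 and 4. It was at 13.3, 10.9 and 18.3 in neuron 1, 2 and 3 and at 11.5, 12.8, 11.9 and 11.6 in both 1, 2, 3 and 4. The glia libraries were above all neuron and both libraries, and control 1 lay among them while control 2 and 3 did not. In both against glia it fell by 1.18 on the log2 scale (SE 0.32, adjusted p 0.0423 in limma), with -1.11, -1.37 and -1.04 within batches 1, 2 and 4. This call sat close to the threshold. It was lost with the batch as a block (adjusted p 0.0806), in a fit of only these groups (0.0513) and with 10 of the 13 libraries left out singly (0.052 to 0.137), the exceptions being control 1, control 3 and glia 4. It was also lost without each batch in turn (0.0697 to 0.248). In glia against neuron GstE11 differed by 0.98 (SE 0.34, adjusted p 0.129), and in glia against control by 0.66 (SE 0.34, adjusted p 0.553), with -0.25 and 1.23 within batches 1 and 2. Markers of oenocytes, the cells that make cuticle hydrocarbons, are given here beside GstE11 by library. Their summed normalized counts were 18211, 4421 and 5075 in control 1, 2 and 3, then 4800, 25738 and 8277 in glia 1, 2 and 4. They were 633, 2908 and 410 in neuron 1, 2 and 3, then 192, 126, 54.3 and 495 in both 1, 2, 3 and 4. Control 1 and glia 2 were thus highest on these markers and on GstE11. Among neuron libraries, neuron 2 was highest on the markers (2908) and lowest on GstE11 (10.9), and neuron 3 was the reverse (410 and 18.3). Glia 1 (4800) lay between control 2 and 3 on the markers, and above them on GstE11. In control 1 the gene Cyp4g1 alone gave 16569 of the 18211. In both against glia 6 of 7 oenocyte markers were called lower, where 4.75% of all genes was, with a median of -4.74. Their part in the GstE11 difference was not tested.

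GstE14 and GstZ2 came close in this comparison and pointed the other way. GstE14, known as noppera-bo and needed for the cholesterol handling that feeds ecdysteroid synthesis, was at 27.3, 30.4 and 34.5 in control libraries, 33.8, 11.2 and 36.9 in glia, 50.5, 30.01 and 53.8 in neuron flies and 56.2, 44.4, 58.0 and 40.5 in both libraries. The both libraries were above all glia and control libraries, by 0.99 on the log2 scale against glia (SE 0.36, adjusted p 0.0986 in limma). GstZ2, a zeta class enzyme, a class that acts in tyrosine breakdown, was at 70.7, 104 and 72.9 in control libraries, 50.7, 64.2 and 75.9 in glia, 72.7, 90.04 and 125 in neuron flies and 88.1, 101, 93.7 and 101 in both libraries. Its both libraries were above all glia libraries, by 0.60 (SE 0.20, adjusted p 0.0844). Neither passed with all libraries. The GstE14 difference leaned on glia 2, without which it was 0.47 (adjusted p 0.336). Without glia 4 both genes passed (1.28, adjusted p 0.0403 for GstE14 and 0.74, adjusted p 0.0452 for GstZ2), so that 4 members passed in that fit. Over all 13 libraries left out singly, the adjusted p of GstZ2 ran from 0.0452 to 0.186.

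In glia against neuron 1 of 34 members passed, GstE10, higher in glia, where 3.24% of all genes was called, 2.66% higher and 0.583% lower. At an unadjusted p under 0.05 there were 10 members (29.4%), 7 higher and 3 lower, against 21.5% of all genes (11.7% higher and 9.79% lower). The median difference was 0.18, against 0.06 over all genes, with 24 of 34 positive, 8 of 10 in class D and 4 of 4 in class T. Without GstD4 and GstD7, 22 of 32 were positive (median 0.16), 6 of 8 in class D. Every glia library was above every neuron library for 7 of 34 members and below for 2, beside 13.1% and 9.90% of all genes. The 7 included both GstD4 and GstD7, which passed the filter only through the glia libraries. GstO3 had the next smallest adjusted p (0.0683, difference 0.61, SE 0.17), with 0.75 and 0.32 within batches 1 and 2. GstT1, a theta GST at 91.0, 119 and 120.3 in glia and at 68.3, 67.3 and 91.3 in neuron libraries, differed by 0.54 (SE 0.16, adjusted p 0.0908) and passed without glia 1 (0.0464), with adjusted p of 0.0464 to 0.309 over the 13 libraries left out singly. GstT4, the most abundant theta gene, was at 274, 320.4 and 369.8 in control libraries, 425, 364 and 362 in glia, 206, 326 and 251 in neuron flies and 308, 239, 225 and 338 in both libraries. Its glia libraries were above all neuron and both libraries, by 0.58 against neuron (SE 0.19, adjusted p 0.114).

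In both against neuron 0 of 34 members passed, where 0% of all genes was called. GstO3 (0.38, SE 0.16) was the 1 member at an unadjusted p under 0.05, against 4.24% of all genes (1.67% higher and 2.56% lower), and limma-voom called 0. It was also the 1 member (2.94%) whose groups did not overlap, beside 6.65% of all genes (3.31% higher and 3.34% lower). The median difference was -0.01, against 0.00 over all genes, with 17 of 34 positive. The interaction, which asks whether the effect of both transgenes departs from the sum of their single effects, also gave 0 members, where 0.0821% of all genes was called. GstE10 (-2.51, SE 0.79, adjusted p 0.398 in limma) was the 1 member at an unadjusted p under 0.05, against 7.30% of all genes, and limma-voom called 0. The median interaction was -0.22, against 0.01 over all genes, with 21 of 34 members negative (19 of 32, median -0.17, without GstD4 and GstD7).

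**Figure D5:**
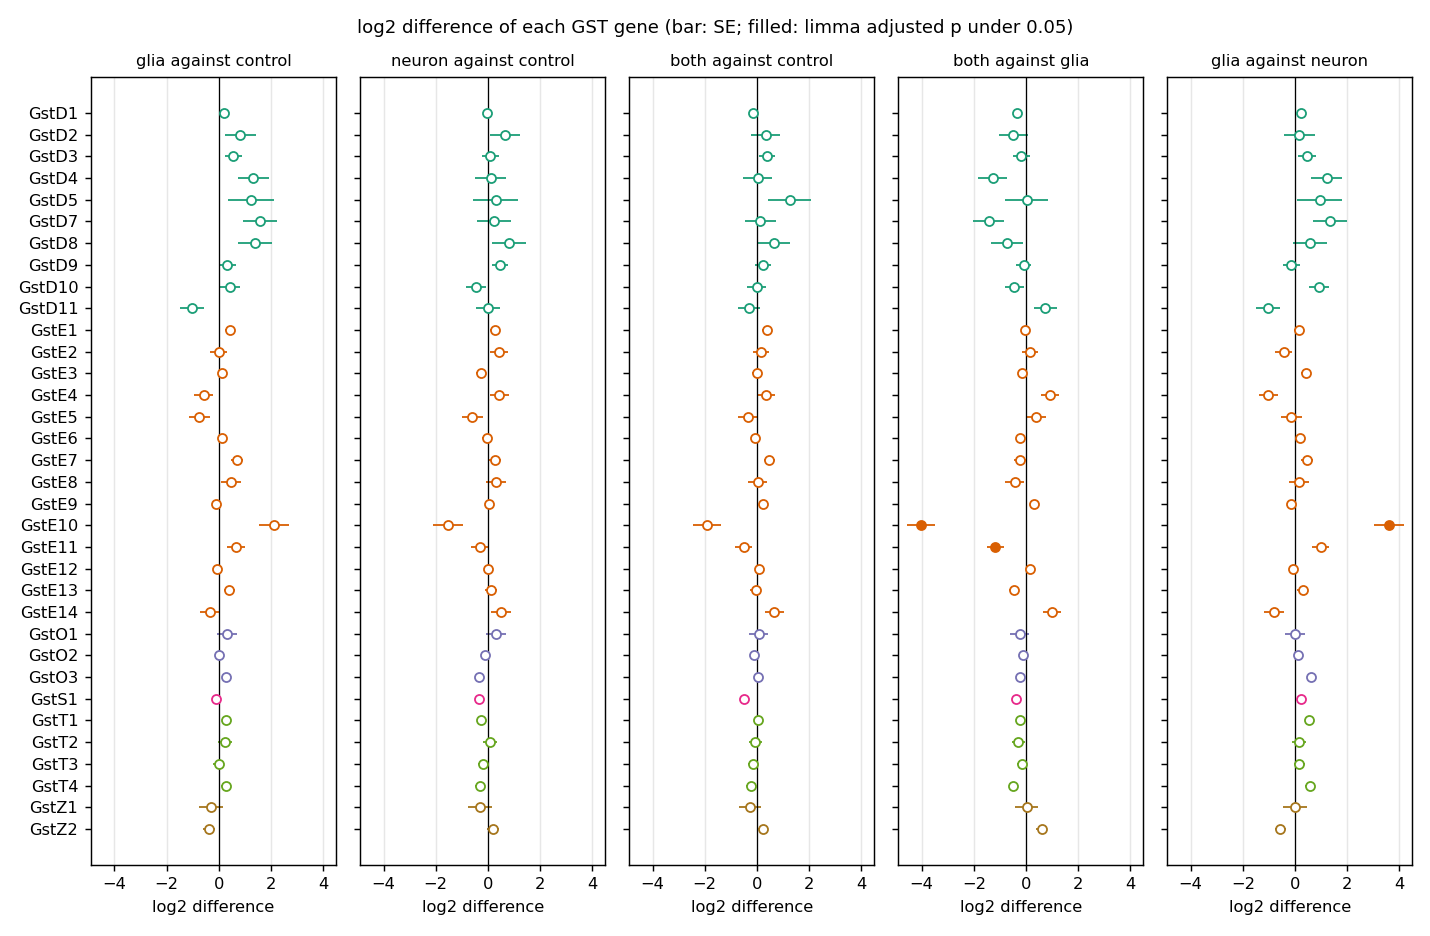
Log2 differences of all 34 members (points, with SE as bars) in the 3 comparisons against control, in both against glia and in glia against neuron, on the log2(normalized count + 1) scale and ordered by class. Filled points passed: GstE10 (-4.02) and GstE11 (-1.18) in both against glia and GstE10 (3.61) in glia against neuron.

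Group means of a member differed at most by 0.546 on the log2 scale in the median of the 34, and by 0.512 in the median of all genes tested. Of the members, 16 had a range under 0.5, and 8 had a range over 1. The 8 included GstD4 and GstD7, which passed the filter only through the glia libraries. The shares of all genes at these cuts were not counted, so the 16 and the 8 are a description.

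The genes around the GSTs were read from lists of glutathione synthesis, glutathione breakdown, cysteine supply, peroxide and disulfide reduction, the cnc and Keap1 regulators, exporters of conjugates and GST relatives outside the naming rule. Of these, 32 genes were matched and tested. In glia against control 0 passed, and 22 of 32 differences were positive with a median of 0.05, beside 0.772% called, 46.4% positive and a median of -0.03 over all genes tested. In neuron against control 0 passed, with 9 positive and a median of -0.09, beside 0%, 42.6% and -0.06 over all genes. In both against control 1 passed, with 11 positive and a median of -0.05, beside 1.01%, 44.1% and -0.05. Gclc, the catalytic subunit of the enzyme that limits glutathione synthesis, had means of 474 in control, 585 in glia, 508 in neuron flies and 543 in both flies, and its glia difference of 0.31 (SE 0.15) had an adjusted p of 0.526 in limma. The regulators showed little difference in glia against control, with -0.08 (SE 0.08) for cnc and 0.00 (SE 0.13) for Keap1. The smallest adjusted p in that comparison belonged to Clic, a chloride channel relative of the GST fold (0.42, SE 0.15, adjusted p 0.307), to gfzf, a protein with a GST domain (0.31, SE 0.13, adjusted p 0.462), and to the conjugate exporter MRP (0.26, SE 0.11, adjusted p 0.464). In neuron against control the smallest p after se belonged to TrxT, a thioredoxin of the testis (-2.44, SE 0.95, adjusted p 0.376), and to Ggt-1, a relative of the enzymes that split glutathione (-0.74, SE 0.33, adjusted p 0.395). In both against control they belonged to CG14407, a glutaredoxin (-0.58, SE 0.18, adjusted p 0.138), and to TrxT (-2.40, SE 0.89, adjusted p 0.183). TrxT had a mean of 26.6 ± 22.9 in control. Medians of the male gland markers were 56.8 to 892 in control and 0 to 101 in glia, which overlapped. These medians were 0 to 3.55 in neuron and 0 to 0.965 in both libraries, and the part of these markers was not tested.

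The gene that passed was se, sepia, an omega class GST named for its eye color and known for making a precursor of the red eye pigments. Its mean was 29.4 ± 4.44 in control (n = 3), 28.1 ± 5.76 in glia (n = 3), 46.5 ± 2.79 in neuron (n = 3) and 67.4 ± 11.2 in both flies (n = 4). It was higher in both than in control by 1.16 on the log2 scale (SE 0.20, adjusted p 0.024 in limma) and than in glia by 1.24 (SE 0.20, adjusted p 0.0032). In neuron against control it differed by 0.65 (SE 0.21, adjusted p 0.309). Photoreceptor markers were also higher in neuron and both libraries, with a median of 5925 to 8154 there against 4489 to 5206 in control, and their part in the se difference was not tested. The exons of se overlap those of GstO2 on the opposite strand, and GstO2 had means of 168 ± 16.6 in control, 171 ± 27.7 in glia, 156 ± 19.8 in neuron flies and 157 ± 9.47 in both flies.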

How the data were processed

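RNA of heads was depleted of ribosomal RNA and sequenced as stranded paired ends, per the labels' protocols. Per the submitters' processing notes, the tools were STAR, Salmon, featureCounts and DESeq2, beside the quality tools FastQC and MultiQC, with build BDGP6 and no versions. The deposited table holds a signal made from read counts (adjusted counts, per the file headers). Tested on the values, a library's entries equal 1 plus its reads over a constant: 100% came out whole within 0.01, with a largest gap of 3.4e-05. The 1 was subtracted throughout, which gave the normalized counts. Of 16 labelled samples, 3 had no column and were not used here. Groups came from titles and genotypes, since the labels' cell type field names glia for control flies too.

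The filter kept 12181 genes that reached a normalized count of 1 in 4 or more libraries and removed 105. With limma 3.58.1 (trend option, R 4.3.3), a model of the 4 groups, without batch and with 9 residual degrees of freedom, was fitted to log2(normalized count + 1) of 13 libraries and tested on simulated data. P-values were adjusted by Benjamini-Hochberg over all genes tested within each of the 7 comparisons (6 pairwise and 1 interaction), with a threshold of 0.05. Intervals of read ratios are exact at 95%. The labels give the batch as the replicate number, so numbers pair samples. Deviations of same-batch samples had a median correlation of 0.0697 over 16 pairs, 5 of them above 0.1. Gene IDs were matched to an Ensembl annotation (12147 of 12286, and all 34 members).

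The members and lists were chosen with earlier results of these data known. Members given in full were those past the threshold, the 3 with the smallest p against control in each comparison, and in each class the most abundant per kb and the one with the widest range of group means among those averaging at least 50. The other members named (GstE1, GstE14, GstT1 and GstO2) and the organ markers were chosen after their values were seen.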

Additional observations from a re-analysis of the deposited data

Results flagged for a closer look

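In the 4 both libraries, 4 of the 34 members had 1 library set apart from the other 3 by more than a gap test for small groups allows (Dixon's test at 95%). Chance alone flags about 1 in 20 groups, a rate that does not hold for counts near 0. GstD2 was at 28.2 normalized counts in both 2, and at 12.8 to 14.5 in the other 3. GstD5 was at 19.2 in both 1, and at 2.23 to 5.12 in the others. GstE6 was at 167.9 in both 4, and at 126 to 133 in the others. GstE10 was at 0.965 in both 4, which is 1 read, and at 0 in the others. With the others at 0, any read in the remaining library is flagged, so this flag says nothing about GstE10. Control, glia and neuron have 3 libraries each and were not examined this way.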

How the results depend on the processing

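Of 38 fold changes under 27 alternatives, 1014 values were obtained, of which 989 kept direction and side of the threshold, 19 were no longer past it, 6 became so, and 0 changed sign. The count of members past the threshold was 0 in glia against control, and 1 with a pseudocount of 5. In both against control it was 0, and 1 in a fit of only the groups compared, with 0 to 1 when 1 library was left out. In both against glia it was 2. It was 1 with a minimum of 10 normalized counts, in a fit of only the groups compared, with the replicate block (batch as a term, 6 residual degrees of freedom), without control 1 and glia 2 together and without each batch, and 1 to 4 with 1 library left out. In glia against neuron it was 1, and 0 with a minimum of 10 (which removes GstE10), without batch 1 and without batch 2, with 1 to 2 when 1 library was left out. The replicate block changed no other count of members. The cause of these shifts was not tested. Over all genes the calls ranged over the alternatives from 0 to 179 in glia against control (94 in the reported fit), 0 to 265 in neuron against control (0), 0 to 860 in both against control (123), 126 to 1876 in both against glia (957), 0 to 2 in both against neuron (0), 32 to 1192 in glia against neuron (395) and 0 to 54 in the interaction (10). Leaving out batches, and counting without GstD4 and GstD7 (which changed no count of members past the threshold), were added after seeing the data. The planned edgeR and DESeq2 tests were not run. Limma-voom on the recovered reads was run in their place. Depth limits the 6 members averaging under 10 normalized counts, where 1 read is worth 0.744 to 1.33.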
